A study of Mus musculus with 10 samples.

Results

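The genes described here are the splicing factors and RNA-binding proteins counted in layer 5 intratelencephalic projection neurons (IT-PNs) of the mouse motor cortex. They were found by symbol: names that start with Hnrnp, Srsf, Rbfox, Elavl, Ptbp, Mbnl, Khdrbs, Pcbp, Sf3 or Snrp, names made of Rbm or Celf and a number, and *Nova1*, *Nova2*, *Qk*, *Syncrip*, *Tia1* and *Tial1*. This gave 124 of the 24453 gene symbols in the count table, and 122 of them are protein-coding genes in the GENCODE annotation of GRCm38, while *Rbm3os* and *Rbm46os* are antisense genes that carry the symbol of their neighbour.

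Splicing of a pre-mRNA is carried out by the spliceosome, whose small nuclear ribonucleoproteins (snRNPs) pair with the splice sites and the branch point. Whether an exon is kept is set by proteins that bind nearby: SR proteins mostly favour inclusion and hnRNP proteins often favour skipping. A further tier of regulators, many of them restricted to certain cell types, gives neurons their own set of isoforms. It includes the Rbfox, Nova, Elavl, Celf and Ptbp families. Many of the same proteins go on to control the stability, transport and translation of mRNA in axons and dendrites.

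The bulk RNA-seq data held 10 libraries, of which 5 were *Fezf2+ve* and 5 were *Fezf2−ve*, and each of 5 animals gave 1 library of either type. All animals were male hemizygous *Fezf2-Gfp* mice, (Zfp312-EGFP)CO61GsatMmnc, on a Swiss Webster background, in which a bacterial artificial chromosome places GFP under *Fezf2* regulatory sequence. The retrograde tracer cholera toxin subunit B (CTB) conjugated to Alexa 647 was injected in M1 of the left hemisphere at postnatal day 23 to 25, and layer 5 of right M1 was dissected at postnatal day 28 to 32. *Fezf2+ve* IT-PNs were sorted as GFP and CTB positive and *Fezf2−ve* IT-PNs as CTB positive alone. The sample records give mean sort yields of 11280 and 2688 cells, but the sources differ on the second mean, and how many cells entered each library was not used here.

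Gene reads numbered 118134, 107643, 118069, 151591 and 203379 across *Fezf2+ve* libraries 1 to 5, numbered by animal, and 167916, 89138, 168711, 211368 and 217738 across *Fezf2−ve* libraries. At this depth 3 reads, taken as the floor of detection, are worth 14.6 to 35.3 TMM CPM, which are reads scaled to a library of 1000000 after correction of library size by the trimmed mean of M-values (TMM). Reads were amplified without molecular identifiers, so this floor and the intervals given here cover counting error only.

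The labelled cell type was checked on marker genes. All 6 general neuronal markers had reads, and they summed to 43, 75, 31, 54 and 13 reads in *Fezf2+ve* libraries 1 to 5 against 12, 9, 18, 19 and 11 across *Fezf2−ve* libraries, with *Map2* the most abundant at 112 reads. As a share of gene reads this was higher on the *Fezf2+ve* side of 5 of 5 animals. The 4 glutamatergic markers were led by *Camk2a*, 529 of whose 588 reads lay in *Fezf2−ve* library 3, and *Slc17a7* had 11 reads in all. Interneuron markers were near 0, with 11 reads over 6 genes and none on *Slc32a1*, *Pvalb* or *Vip*. *Fezf2* itself, the gene that names the types, had 1 read over the 10 libraries, in *Fezf2+ve* library 5, so the counts do not check the GFP sort.

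Microglial markers separated the types. All 10 had reads and their sum was 29, 18, 10, 10 and 24 reads in *Fezf2+ve* libraries 1 to 5 and 1064, 380, 1139, 343 and 859 reads across *Fezf2−ve* libraries, with *Ctss* the most abundant at 817 reads. Every *Fezf2−ve* library was above every *Fezf2+ve* library, and edgeR with the animal as a block called 0 of the 10 genes, with 9 at an unadjusted p under 0.05, while DESeq2 called 9, all lower in *Fezf2+ve*. The 4 haemoglobin genes, led by *Hbb-bs* at 410 reads, summed to 103, 11, 2, 0 and 0 reads against 758, 294, 46, 60 and 2, a lower share of gene reads on the *Fezf2+ve* side of 5 of 5 animals. In this sum *Hba-a1* and *Hba-a2* have the same counts in all 10 libraries, so shared reads may be counted more than once. The part of either in the member values below was not tested, and in bulk samples a difference in the kinds of cells present and a difference in RNA per cell cannot be told apart.

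Reads fell on 114 of the 124 members, 39986 reads in all, and 10 members had none: *Rbm12b2*, *Mbnl3*, *Rbm43*, *Rbm46*, *Rbm31y*, *Rbm3os*, *Rbm3*, *Rbm24*, *Snrpf* and *Snrpd3*. A count of 0 in a library allows a level up to the floor given above. Another 25 members had 1 to 3 reads over all libraries, among them the neuronal *Elavl2*, *Celf3* and *Celf5* and the core snRNP genes *Snrpa*, *Snrpc*, *Snrpd1* and *Snrpd2*. The filter of at least 10 CPM in at least 2 libraries was passed by 72 members.

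Together the members took 0.228, 0.903, 1.91, 8.65 and 1.61% of gene reads across *Fezf2+ve* libraries 1 to 5, and 0.731, 1.55, 3.90, 1.44 and 3.61% across *Fezf2−ve* libraries. The types overlapped, and the lowest and the highest library were both *Fezf2+ve*. Wilson 95% intervals were 0.202 to 0.257% for the lowest and 8.51 to 8.79% for the highest library. The share was higher on the *Fezf2+ve* side of 1 of 5 animals, animal 4, with a mean of 2.66 ± 3.41% (SD, n = 5) for *Fezf2+ve* against 2.25 ± 1.42% (SD, n = 5) for *Fezf2−ve* IT-PNs. Without *Syncrip*, the member with the most reads, the mean of the *Fezf2+ve* libraries was 0.935 ± 0.816% (SD, n = 5), that of the *Fezf2−ve* libraries 2.23 ± 1.42% (SD, n = 5), and the share was higher on the *Fezf2+ve* side of 0 of 5 animals.

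**Figure D1:**
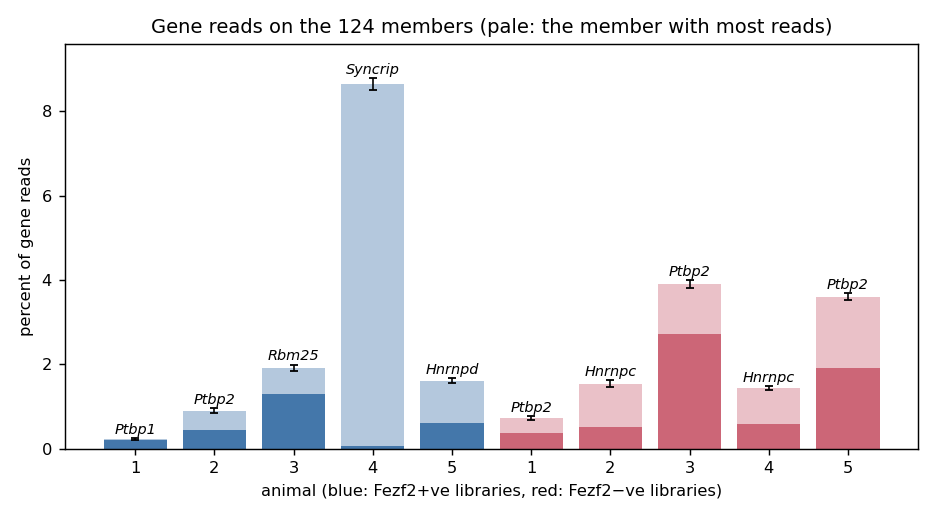
Percent of gene reads on the 124 members in each library (y axis), for animals 1 to 5 of each type (x axis), with Wilson 95% intervals of the whole bar as error bars. The pale part of a bar is the named member with the most reads in that library, which held 13000 of 13109 member reads in *Fezf2+ve* library 4 and 28 of 269 in *Fezf2+ve* library 1, where the *Ptbp1* reads were also counted on an overlapping gene.

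The member with the most counted reads changed from library to library. It was *Ptbp1* (whose reads are shared with an overlapping gene, as given below), *Ptbp2*, *Rbm25*, *Syncrip* and *Hnrnpd* in *Fezf2+ve* libraries 1 to 5, and *Ptbp2*, *Hnrnpc*, *Ptbp2*, *Hnrnpc* and *Ptbp2* across *Fezf2−ve* libraries. It held from 28 of 269 member reads in *Fezf2+ve* library 1 to 13000 of 13109 in *Fezf2+ve* library 4. The number of members with at least 1 read ran from 31, in *Fezf2+ve* library 4, to 77, in *Fezf2−ve* library 3.

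The cell-type-restricted regulators were 25 genes, of which 24 had reads and 19 were tested. They were grouped by gene family, so the group also holds widely expressed genes such as *Elavl1*. *Ptbp2*, the neuronal polypyrimidine tract-binding protein, which holds back adult splicing patterns in young neurons, lies at chr3:119718742-119784466 and had 7, 486, 5, 9 and 382 reads in *Fezf2+ve* libraries 1 to 5 and 593, 5, 1982, 3 and 3675 reads across *Fezf2−ve* libraries. It was high in 5 libraries of 4 animals and at 9 reads or fewer in the other 5, so that the types overlapped and animal 5 was high in both. Its mean was 1143 ± 1505 TMM CPM (SD, n = 5) for *Fezf2+ve* against 6624 ± 8647 TMM CPM (SD, n = 5) for *Fezf2−ve* IT-PNs, a log2 fold change (*Fezf2+ve* over *Fezf2−ve*, fitted by edgeR with the animal as a block) of −2.60 with a standard error of 2.73. Leaving out 1 animal moved this value between −4.20 (without animal 2) and −0.55 (without animal 3).

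*Ptbp1*, the form found in non-neuronal cells, had 28, 1, 0, 0 and 0 reads across *Fezf2+ve* libraries and 0, 1, 1, 1 and 0 across *Fezf2−ve* libraries. The adjoining gene *Plppr3*, whose annotated span overlaps that of *Ptbp1*, had the same number of reads in 8 of the 10 libraries, 28 in *Fezf2+ve* library 1 among them. Since a read was counted on every gene it overlaps and the use of strand is not given, these reads cannot be assigned to *Ptbp1*. *Ptbp3* had 21 reads in *Fezf2+ve* libraries, 18 of them in animal 5, and 1 in *Fezf2−ve* libraries, a ratio of scaled reads of 26.0 with a 95% exact counting interval of 4.19 to 1077. This interval pools reads over libraries, leaves out the spread between them and is no test of the types.

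The Rbfox proteins bind UGCAUG and regulate exons of ion channels and synaptic proteins. *Rbfox1* had 13, 28, 503, 17 and 17 reads across *Fezf2+ve* libraries and 23, 8, 992, 13 and 6 across *Fezf2−ve* libraries. Both libraries of animal 3 were high, and the remaining 8 lay between 6 and 28 reads with both types across that range. The log2 fold change of *Rbfox1* was 0.67 with a standard error of 1.04, and its sign turned when the animal was left out of the model (−0.34). *Rbfox2* was high in 1 library, 69 of its 82 reads being in *Fezf2+ve* library 2. *Rbfox3*, known as the neuronal nuclear antigen NeuN, had 11 reads in all, with at most 4 in a library.

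Elavl proteins bind AU-rich sequence and stabilise mRNA, and 3 of the 4 are largely neuronal. *Elavl3* had 6, 3, 87, 4 and 479 reads across *Fezf2+ve* libraries and 19, 4, 3, 518 and 3 across *Fezf2−ve* libraries. It was high in 1 or 2 libraries of each type, from different animals, and its log2 fold change of 0.73 had a standard error of 2.27 and turned sign without the block (−0.19), without animal 3 (−0.89) and without animal 5 (−0.95). *Elavl4* had 270 of its 329 reads in *Fezf2−ve* library 2, and the widely expressed *Elavl1* had 15 reads in all.

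Celf proteins bind GU-rich sequence and act in splicing, translation and decay. *Celf1* had 5, 32, 125, 13 and 3 reads across *Fezf2+ve* libraries and 7, 4, 5, 4 and 22 across *Fezf2−ve* libraries. The highest library was *Fezf2+ve* and so was the lowest, and the level was higher on the *Fezf2+ve* side of 4 of 5 animals. The types overlapped, and the fitted log2 fold change of *Celf1* was 1.63 with a standard error of 1.39, and 0.69 without animal 3. *Celf2* was found in all 10 libraries, at 1, 4, 57, 3 and 25 reads against 7, 3, 17, 6 and 15. *Celf4* had 29 reads over 7 libraries and *Celf6* had 9 over 6.

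*Nova1*, an RNA-binding protein of neurons with KH domains, had 47 of its 60 reads in *Fezf2−ve* library 1, and *Nova2* had 4 reads in all. *Qk*, which controls splicing and mRNA localisation of myelin genes in oligodendrocytes and is also found in other glia, had 13, 10, 5, 0 and 12 reads across *Fezf2+ve* libraries and 16, 3, 19, 2 and 873 across *Fezf2−ve* libraries. *Fezf2−ve* library 5 stood alone and the remaining 9 libraries of both types overlapped between 0 and 19 reads.

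The muscleblind genes had few reads. *Mbnl1*, which promotes adult isoforms, had 2, 0, 4, 0 and 3 reads across *Fezf2+ve* libraries and 4, 2, 14, 1 and 6 across *Fezf2−ve* libraries. Its TMM CPM was lower on the *Fezf2+ve* side of 5 of 5 animals, and the types overlapped. *Mbnl2* had 24 reads in all. Of the Khdrbs family, STAR proteins that respond to signalling, *Khdrbs2* had 154 reads with 115 of them in *Fezf2−ve* library 3, *Khdrbs1* had 4 reads in *Fezf2+ve* and 33 in *Fezf2−ve* libraries, and *Khdrbs3* had 24 with 17 in *Fezf2+ve* library 3.

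**Figure D2:**
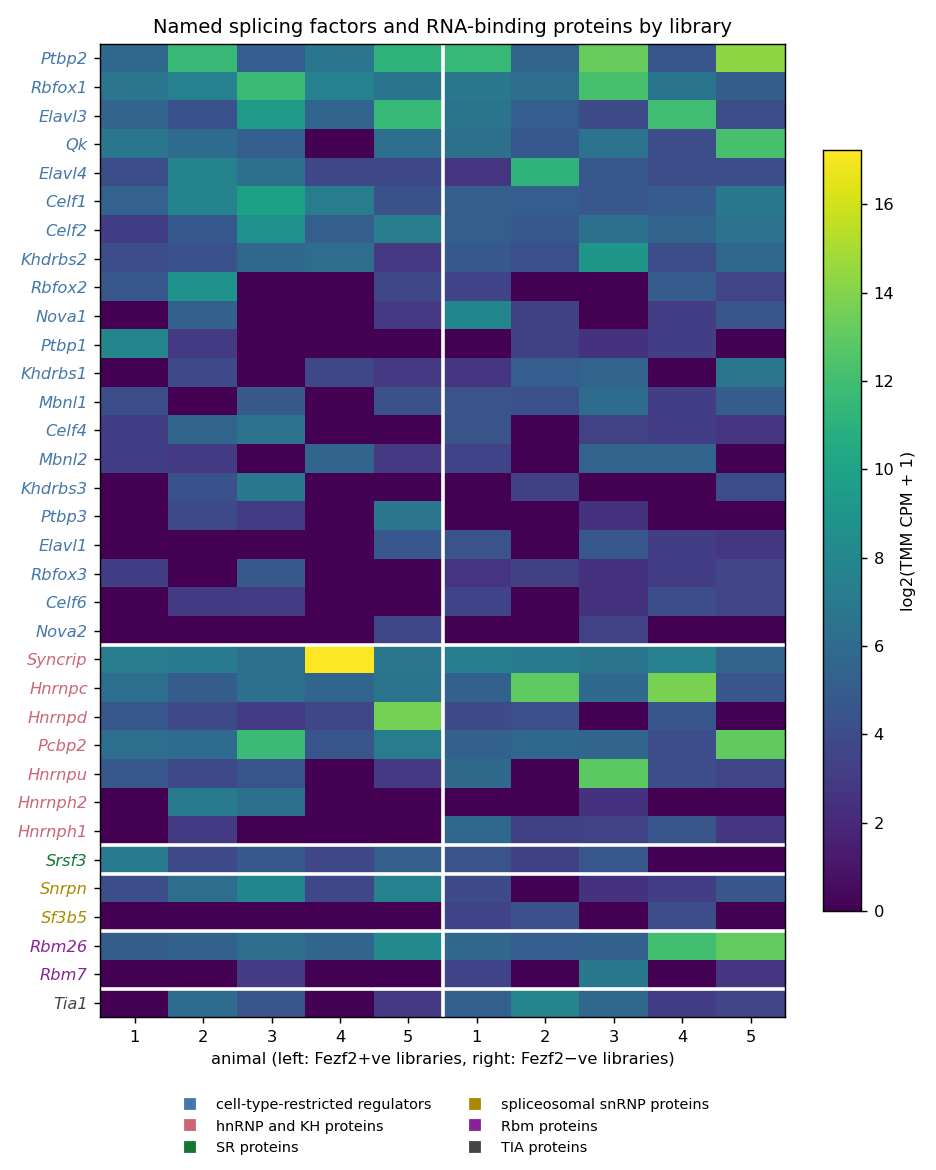
Level of each named member with more than 3 reads (rows, coloured by role) in each library (columns, *Fezf2+ve* animals 1 to 5 on the left and *Fezf2−ve* animals 1 to 5 on the right), as log2(TMM CPM + 1). Some members have 1 bright cell, such as *Syncrip* in *Fezf2+ve* library 4 (13000 reads) and *Hnrnpd* in *Fezf2+ve* library 5 (2022 reads).

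The hnRNP and KH proteins, which coat nascent transcripts and carry mRNA to the cytoplasm, were 25 genes, all with reads and 21 tested, and took 59.4% of the member reads. *Syncrip*, a component of neuronal RNA transport granules, at chr9:88447009-88482574, had 19, 21, 11, 13000 and 18 reads across *Fezf2+ve* libraries and 32, 15, 21, 23 and 8 across *Fezf2−ve* libraries. A single library, *Fezf2+ve* library 4, held 99.3% of its summed TMM CPM, and the other 9 lay between 8 and 32 reads with the types overlapping. The mean was 30691 ± 68359 TMM CPM (SD, n = 5) for *Fezf2+ve* against 123 ± 52.9 TMM CPM (SD, n = 5) for *Fezf2−ve* IT-PNs, while the level was higher on the *Fezf2+ve* side of 3 of 5 animals.

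*Hnrnpc*, which forms the tetramers that package nuclear RNA, at chr14:52073377-52104028, had 9, 5, 11, 4 and 16 reads across *Fezf2+ve* libraries and 8, 917, 12, 1817 and 4 across *Fezf2−ve* libraries. The 2 high libraries were both *Fezf2−ve*, from animals 2 and 4, and the other 3 had 4 to 12 reads beside 4 to 16 in *Fezf2+ve* libraries. *Hnrnpd*, which binds AU-rich elements and promotes decay, had 3, 2, 1, 1 and 2022 reads across *Fezf2+ve* libraries and 3, 2, 0, 3 and 0 across *Fezf2−ve* libraries, a single high library over a level at the floor.

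*Hnrnpu*, a nuclear scaffold protein that binds chromatin-associated RNA, had 3, 2, 3, 0 and 1 reads across *Fezf2+ve* libraries and 12, 0, 1570, 2 and 2 across *Fezf2−ve* libraries. *Fezf2−ve* library 3 held 98.0% of its summed TMM CPM. The related *Hnrnpul1*, singled out after its values were seen, had 964 of its 983 reads in that same library. *Pcbp2*, a poly(C)-binding protein of mRNA stability and translation, had 9, 10, 505, 2 and 24 reads across *Fezf2+ve* libraries and 8, 6, 10, 2 and 1469 across *Fezf2−ve* libraries, 1 high library of each type from different animals. Its mean TMM CPM was lower in *Fezf2+ve* IT-PNs and its level was higher on the *Fezf2+ve* side of 4 of 5 animals, with a fitted log2 fold change of 0.57 and a standard error of 1.58. The sign of this value turned without the block (−1.13) and without animal 3 (−0.60).

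*Hnrnph2* and *Hnrnph1*, paralogs that bind G-runs, had opposite signs. *Hnrnph2* had 0, 21, 12, 0 and 0 reads across *Fezf2+ve* libraries and 0, 0, 1, 0 and 0 across *Fezf2−ve* libraries, a ratio of scaled reads of 40.9 with a 95% exact counting interval of 6.85 to 1665. *Hnrnph1* had 0, 1, 0, 0 and 0 reads against 11, 1, 2, 3 and 1, a ratio of 0.0689 with an interval of 0.00165 to 0.436, and its TMM CPM was lower on the *Fezf2+ve* side of 5 of 5 animals. Both intervals pool reads over libraries, leave out the spread between them and are no test of the types. The types overlapped for both genes, at 0 and at 1 read. Reads of such close paralogs can be split or shared in counting, and both values are uncertain for that reason too.

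Other hnRNP genes are given as examples chosen after their values were seen. *Hnrnpl*, which binds CA repeats, had 496 of its 531 reads in *Fezf2−ve* library 3, the library that also held most reads of *Hnrnpu* and *Hnrnpul1*, and 1 to 6 reads in each of the other 9. *Hnrnpk*, a KH protein that binds C-rich sequence, was spread more evenly, at 2, 7, 5, 0 and 3 reads against 29, 4, 11, 19 and 1, and the types overlapped. *Hnrnpa2b1*, which carries mRNA along dendrites, had 1, 3, 3, 1 and 7 reads against 5, 14, 5, 9 and 0. It was lower on the *Fezf2+ve* side of 4 of 5 animals and the types overlapped, with a log2 fold change of −0.83 and a standard error of 1.38. *Hnrnpa1*, a repressor of exon inclusion, had 9 reads in all.

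SR proteins bind exonic enhancers and recruit the spliceosome, and all 11 *Srsf* genes had reads, 402 in total, with 5 tested. *Srsf3*, which is also an adaptor for mRNA export, had 17, 2, 4, 1 and 6 reads across *Fezf2+ve* libraries and 4, 1, 5, 0 and 0 across *Fezf2−ve* libraries. Its TMM CPM was higher on the *Fezf2+ve* side of 5 of 5 animals and the types overlapped, with a log2 fold change of 2.06 and a standard error of 1.34. The next values were chosen after they had been seen. *Srsf5* had 21, 2, 5, 0 and 5 reads against 11, 8, 16, 12 and 1, and *Srsf4* had 5, 7, 2, 1 and 3 against 2, 7, 5, 12 and 12, with the types overlapping for both. *Srsf7* had 170 of its 172 reads in *Fezf2−ve* library 1 and did not pass the filter, which asks for 2 libraries.

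Proteins of the spliceosomal snRNPs and of the SF3 complexes, which recognise the branch point, were 21 genes with 198 reads in total, 0.495% of the member reads, and 8 were tested. *Snrpn*, the imprinted and mainly neuronal SmN protein, at chr7:59982495-60140219, had 2, 11, 34, 1 and 31 reads across *Fezf2+ve* libraries and 3, 0, 1, 1 and 4 across *Fezf2−ve* libraries. Its TMM CPM was higher on the *Fezf2+ve* side of 5 of 5 animals, and the types overlapped between 1 and 4 reads. Scaled by library size alone it was higher in 4 of 5, with animal 1 lower (16.9 against 17.9 CPM), and in animals 1 and 4 neither library had more than 3 reads. The mean was 105 ± 102 TMM CPM (SD, n = 5) for *Fezf2+ve* against 10.005 ± 8.77 TMM CPM (SD, n = 5) for *Fezf2−ve* IT-PNs, a log2 fold change of 2.88 with a standard error of 1.43. *Snurf*, encoded upstream on the same transcript, had the same number of reads as *Snrpn* in 6 of 10 libraries, 31 in *Fezf2+ve* library 5 among them, and 2 reads against 34 in *Fezf2+ve* library 3, so that where the counts are equal the reads cannot be assigned to *Snrpn*. *Sf3b5*, a small subunit of the SF3B complex, had 0 reads in all *Fezf2+ve* libraries and at most 2 in a *Fezf2−ve* library, and no fold change is given because both types were under the floor of 3 reads per library.

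The Rbm genes are a mixed set of 40 symbols, mostly of proteins with RNA recognition motifs and with the antisense genes *Rbm3os* and *Rbm46os* among them, of which 33 had reads and 18 were tested. *Rbm26*, which takes part in the turnover of nuclear RNA, had 4, 6, 10, 4 and 45 reads across *Fezf2+ve* libraries and 10, 4, 8, 526 and 1575 across *Fezf2−ve* libraries. Animals 4 and 5 were high in the *Fezf2−ve* library and the other 8 libraries overlapped between 4 and 45 reads, with a log2 fold change of −1.98 and a standard error of 1.64, and of −0.93 without animal 4. *Rbm25*, a regulator of apoptotic gene splicing that was singled out after its values were seen, had 724 of its 755 reads in *Fezf2+ve* library 3. *Rbm6*, also singled out after its values were seen, was the most even of the members with at least 100 reads, at 6, 2, 3, 8 and 21 reads against 7, 21, 6, 3 and 23, and its highest library held 25.8% of its summed TMM CPM. *Rbm7*, an adaptor of the nuclear exosome, had 1 read in *Fezf2+ve* and 28 in *Fezf2−ve* libraries, 25 of them in animal 3, a ratio of scaled reads of 0.0443 with a 95% exact counting interval of 0.00108 to 0.268. That interval pools reads over libraries, leaves out the spread between them and is no test of the types.

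*Tia1*, a protein of stress granules that also promotes recognition of weak 5′ splice sites, had 0, 10, 3, 0 and 1 reads across *Fezf2+ve* libraries and 8, 27, 11, 1 and 2 across *Fezf2−ve* libraries. Its TMM CPM was lower on the *Fezf2+ve* side of 5 of 5 animals and the types overlapped, with a log2 fold change of −1.997 and a standard error of 1.25. *Tial1* had 5 reads in all and was not tested.

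Read numbers and TMM CPM order the members by reads, not by transcript level per length. Level per length was not compared between genes because the libraries were biased to the 3′ end. Whether reads were counted on exons or on whole gene spans is also not given in the sources used here. The paper reports high rates of mapping to introns in both types, so the counts may hold intronic reads. Over the 114 members with reads, the median TMM CPM without any scaling for length was larger for genes of longer exon length and of longer span, across genes (Spearman's rho of 0.417 and 0.415), where the genes share the same libraries and are not independent replicates.

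The concentration of reads in 1 library was measured over the tested genes. Over the 72 members tested, the highest library held a median of 49.6% of the summed TMM CPM, against 48.4% over all 7409 tested genes. More than 50% lay there for 48.6% of the members and 47.3% of all tested genes, and more than 90% for 9.72% and 7.37%. For the 19 members with at least 100 reads, the highest library held a median of 67.3% of the summed TMM CPM, and for all 1418 tested genes with at least 100 reads it held 76.1%. More than 50% lay in 1 library for 17 of the 19 members (89.5%) and for 1085 of the 1418 genes (76.5%), and more than 90% for 7 of the 19 members (36.8%) and for 450 of the 1418 genes (31.7%). The 33 spiked-in ERCC transcripts with at least 100 reads, synthetic RNAs added to each RNA sample before cDNA synthesis, had a median of 18.6% of their scaled reads in the highest library, and 1 of them had more than 50% of its reads there. At the minimum of 100 reads the median was thus lower for the members than for the tested genes, and both shares were higher. A gene can pass this minimum through 1 library, as *Hnrnpd* did with 2022 of its 2037 reads in *Fezf2+ve* library 5. The 19 had their highest level in 7 different libraries, 6 of them in *Fezf2−ve* library 3.

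**Figure D3:**
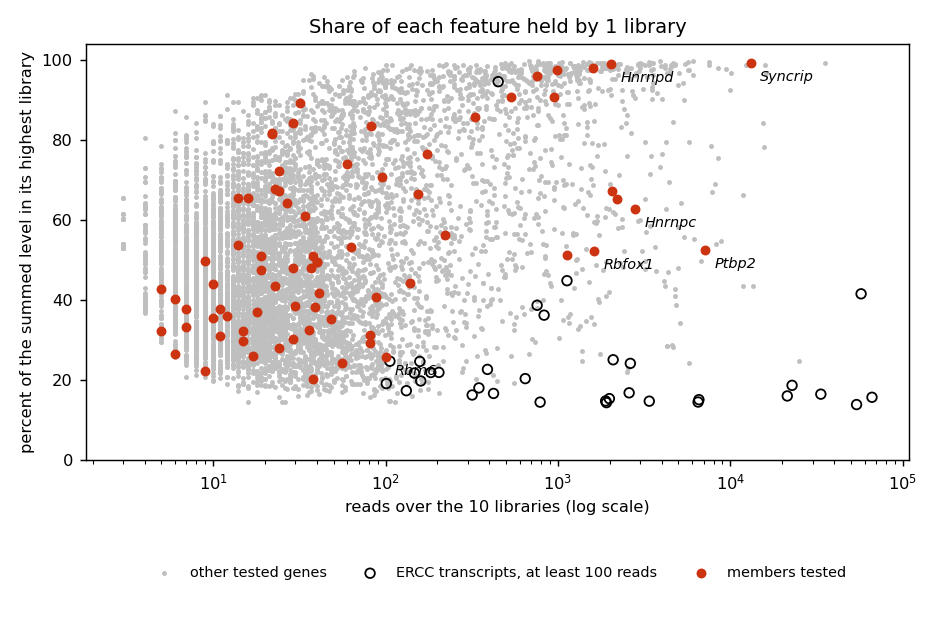
Percent of a feature's summed level held by its highest library (y axis) against its reads over the 10 libraries (x axis, log scale), for all tested genes (grey), the 72 members tested (red) and the ERCC transcripts with at least 100 reads (open circles). Members run from 20.2% for *Rbm39* to 99.3% for *Syncrip*, while 32 of the 33 ERCC transcripts lay under 50%.

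The comparison of *Fezf2+ve* with *Fezf2−ve* IT-PNs asked which members differ between the types. No member passed the test, which sets the difference between the types against how it varies from animal to animal. The largest fitted values belonged to genes with few reads in 1 type, such as *Hnrnph2* (33 reads against 1) and *Snrpn* (79 against 9) on the higher side and *Rbm7* (1 against 28) and *Hnrnph1* (1 against 18) on the lower side. With edgeR's quasi-likelihood test, blocked by animal and adjusted after Benjamini-Hochberg over all 7409 tested genes, 0 of the 72 members tested were called at an adjusted p of at most 0.1, as were 0 of all genes (0.00%). At an unadjusted p under 0.05 there were 0 of 72 members against 3.89% of all tested genes, 288 genes. The smallest unadjusted p of the members were 0.0524 for *Hnrnph2*, 0.0577 for *Snrpn* and 0.101 for *Hnrnph1*, and the adjusted p was at least 0.998 for every member tested. DESeq2 with the same block called 0 members against 1.32% of all genes, 98 genes, and had 1 member, *Snrpn*, at an unadjusted p under 0.05 against 4.08%. It gave no adjusted p for some tested members, such as *Celf4* and *Elavl1*. Genes without one were counted as not called, so these members could not have been called.

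The median log2 fold change of the members tested was −0.15, and that of all tested genes was −0.16. It was higher in *Fezf2+ve* for 35 members and lower for 37, which is 48.6% higher against 45.7% of all tested genes. The median standard error was 1.76 for the members and 1.78 for all tested genes. The fold change exceeded its standard error for 16 of the 72 members (22.2%) and for 29.7% of all tested genes. By role the median log2 fold change was −0.20 for the 19 cell-type-restricted regulators, 0.37 for the 21 hnRNP and KH proteins, −0.36 for the 5 SR proteins, −0.52 for the 8 snRNP and SF3 proteins and 0.08 for the 18 Rbm proteins. Without *Sf3a3* and *Sf3b5*, which had no read in *Fezf2+ve* libraries, the median of the other 70 members was −0.03.

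**Figure D4:**
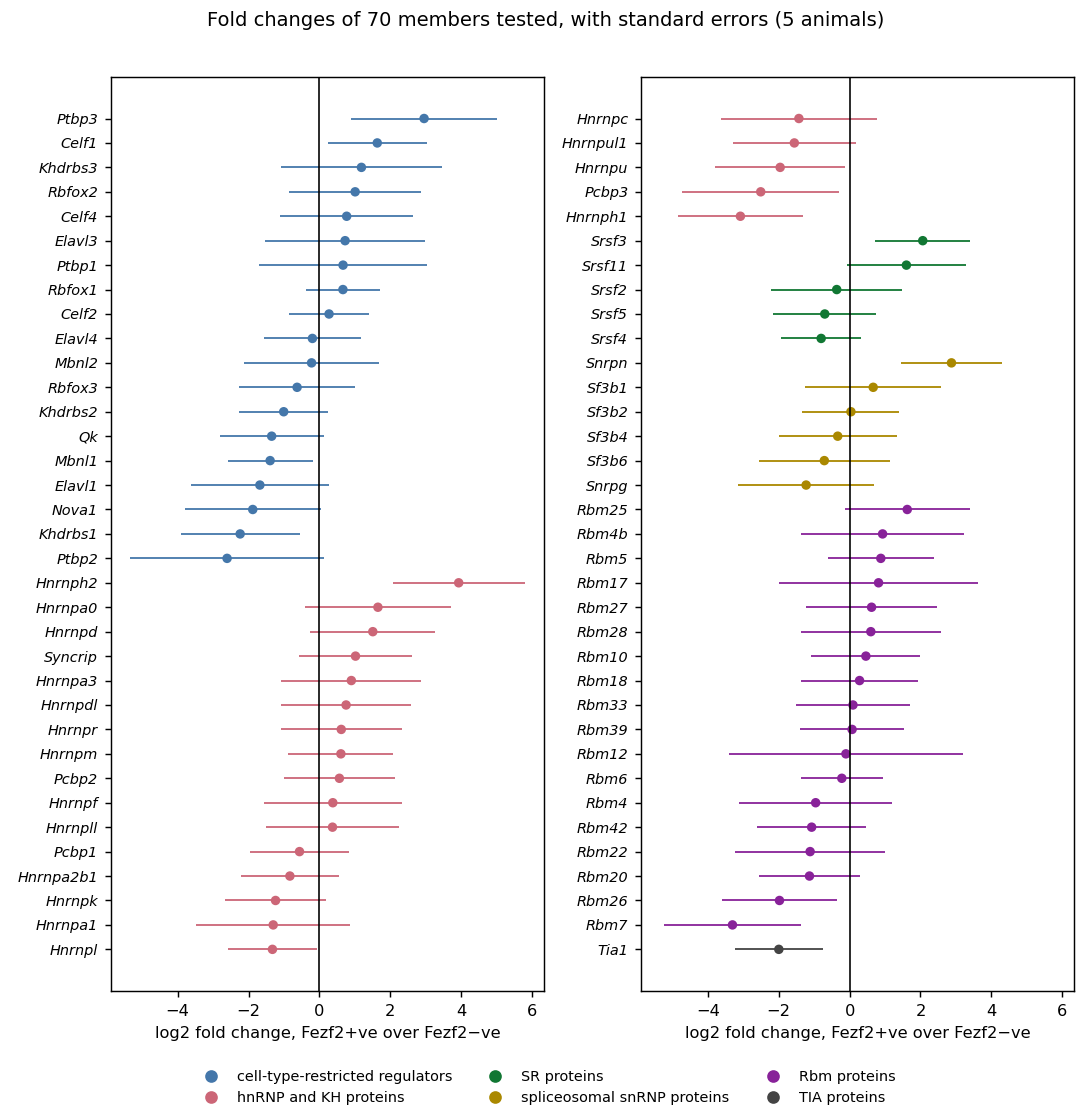
Fitted log2 fold change, *Fezf2+ve* over *Fezf2−ve* (x axis, points), with 1 standard error (bars) for 70 members tested, coloured by role, without *Sf3a3* and *Sf3b5*. Values run from −3.31 (*Rbm7*) to 3.93 (*Hnrnph2*), and the fitted values of genes with few reads in a type depend on the prior count.

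The same direction in 5 of 5 animals was seen for 5 of the 72 members (6.94%) against 4.10% of all tested genes. Of these, *Snrpn* and *Srsf3* were higher in *Fezf2+ve* (2 members against 1.69% of all genes) and *Hnrnph1*, *Mbnl1* and *Tia1* were lower (3 members against 2.42%). By library size alone *Snrpn* was higher in 4 of 5 animals, and the other 4 members had the same direction in 5 of 5. Types that did not overlap were seen for 0 of the 72 members tested against 1.46% of all tested genes. Among the members that did not pass the filter, *Hnrnph3*, named after its values were seen, had 1, 1, 1, 1 and 3 reads against 0, 0, 1, 0 and 0. Its TMM CPM did not overlap between the types and was higher on the *Fezf2+ve* side of 5 of 5 animals, but no library had more than 3 reads and no fold change is given. The counted gene *Rufy2* overlaps *Hnrnph3* and had 1, 3, 1, 0 and 3 reads against 0, 0, 3, 0 and 1. In *Fezf2+ve* libraries 1, 3 and 5 both genes had the same number of reads, which cannot be assigned to *Hnrnph3*. The 1 read of *Hnrnph3* in *Fezf2+ve* library 4 was not counted on *Rufy2*. These shares were near the background or rested on few genes, and nothing particular to the members is read from them.

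Without the animal block, edgeR called 5 of the 72 members (6.94%) against 3.77% of all tested genes, 279 genes. They were *Syncrip* and *Hnrnpd*, higher in *Fezf2+ve*, and *Hnrnpc*, *Hnrnpu* and *Hnrnpul1*, lower, each with an adjusted p of 0.0931 in that model and of at least 0.998 with the block. At an unadjusted p under 0.05 the unblocked model had 16 members (22.2%) against 18.2% of all tested genes. The legacy quasi-likelihood method of edgeR without the block called 6 members against 8.61% of all tested genes. The log2 fold change of *Syncrip* was 7.95 without the block and 1.02 with it (standard errors of 2.36 and 1.60), and without *Fezf2+ve* library 4 the unblocked value was −0.11 with a standard error of 0.90 and an adjusted p of 0.971. In the same way *Hnrnpd* went from 7.73 to 0.34 without *Fezf2+ve* library 5, *Hnrnpu* from −6.80 to −0.79 and *Hnrnpul1* from −6.14 to −0.23 without *Fezf2−ve* library 3, with adjusted p of 0.940, 0.841 and 0.960. *Hnrnpc*, with 2 high libraries, went from −6.05 to −4.89 without *Fezf2−ve* library 4, with an adjusted p of 0.146. Leaving out any single one of the 10 libraries left 0 members called in the unblocked model and 0 of all genes, except that 15 genes were called without *Fezf2−ve* library 1.

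**Figure D5:**
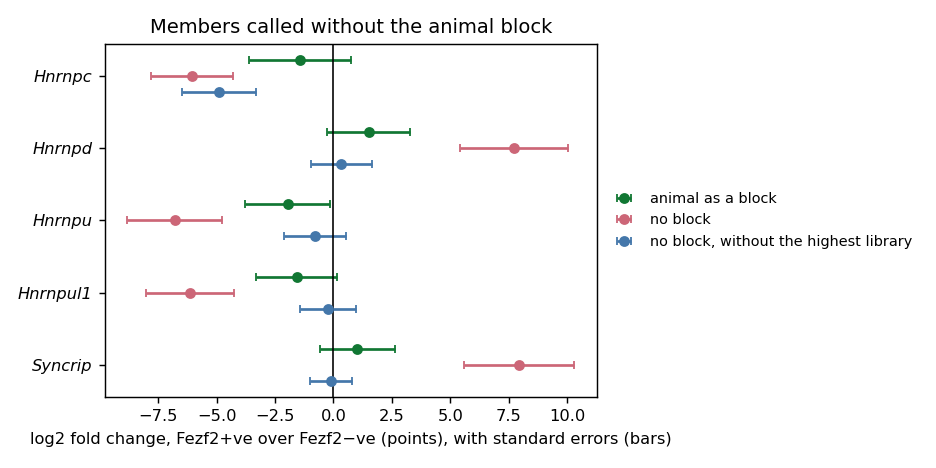
Log2 fold change, *Fezf2+ve* over *Fezf2−ve* (x axis, points), with 1 standard error (bars), of the 5 members called without the animal block, in the model with the block, without it, and without it after the gene's highest library was left out. *Syncrip* stood at 1.02, 7.95 and −0.11 in these 3 models.

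Of 70 related RNA-processing genes outside the symbol rule, 65 had reads and 51 were tested, and 0 were called by edgeR or by DESeq2 with the block. In either tool 3 of the 51 had an unadjusted p under 0.05, beside 3.89% of all tested genes in edgeR and 4.08% in DESeq2. Without the block 2 of the 51 were called by edgeR, beside 3.77% of all tested genes. Their median log2 fold change was −0.62, beside −0.16 over all tested genes. It was higher in *Fezf2+ve* for 15 and lower for 36, beside 45.7% higher over all tested genes. Their sum was 176, 375, 353, 82 and 453 reads in *Fezf2+ve* libraries 1 to 5 and 365, 472, 4327, 519 and 4162 across *Fezf2−ve* libraries. As a share of gene reads it was lower on the *Fezf2+ve* side of 5 of 5 animals, and the types overlapped. *Tra2b*, an SR-related activator of exon inclusion, was the most abundant, with 9, 4, 65, 1 and 36 reads against 11, 4, 1042, 4 and 2028. The 2 high libraries were *Fezf2−ve* 3 and 5, where *Ptbp2* was also at its highest. Of the 19 members with at least 100 reads, 6 had their highest level in *Fezf2−ve* library 3 and 4 in *Fezf2−ve* library 5. *Raly* had 2282 of its 2518 reads in *Fezf2−ve* library 3, and *Clk4* had 1332 of its 1350 in *Fezf2−ve* library 5. Among the related genes at an unadjusted p under 0.05 in edgeR were *Rbpms* (log2 fold change 3.29, standard error 1.38, higher in 5 of 5 animals) and *Clk2*. The latter had 0 reads in *Fezf2+ve* and 57 in *Fezf2−ve* libraries, 54 of them in animal 1. Microglial markers were also higher in *Fezf2−ve* libraries, and their part in these values was not tested.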

How the data were processed

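The authors separated samples by inline barcode with sabre, trimmed reads with the FASTX-Toolkit (the submitters' processing notes also list bcl2fastq 1.8.4), mapped them to mm10 (TopHat2 2.1.1) or to ERCC sequences, and counted them on RefFlat genes (bedtools 2.26.0, multiCov), where a read counts on every gene it overlaps. The count tables were deposited without normalization. Another deposited table holds the authors' own comparison (fold changes and p-values) and was not used.

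A gene was tested where 2 or more libraries reached 10 CPM (7409 of 24453). Counts were scaled by TMM (factors of 0.568 to 1.48) and tested with edgeR 4.0.16 (quasi-likelihood, limma 3.58.1, R 4.3.3), with animal as a block and type as the factor, and Benjamini-Hochberg adjusted p of at most 0.1 as a call. Standard errors are the fold change over the root of F. The pairing comes from the labels, by which both fractions were sorted from 1 animal. Deviations from the type means correlated at −0.0267 to 0.0970 (median 0.0214) between libraries of 1 animal and at −0.124 to 0.119 (median −0.00738) between other libraries of opposite type. A first fit used edgeR's default legacy quasi-likelihood method with the original library sizes. It was replaced, after its results had been seen, by the non-legacy method with recomputed library sizes, and the legacy method is given as an added alternative. The fits without 1 library at a time were also added after the data had been seen. The fitting code was tested on simulated counts. DESeq2 1.42.0 was the other tool, and genes to which it gave no adjusted p were counted as not called. Python 3.11.15, pandas 2.3.3, numpy 2.4.6, scipy 1.17.1 and matplotlib gave the rest.

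Members and lists were chosen with earlier results of these data known. Named members are the 10 with the highest mean TMM CPM, the 5 with the smallest p in each direction, and every Rbfox, Nova, Elavl, Celf, Ptbp, Mbnl and Khdrbs gene with *Qk*. Genes named outside this rule were chosen after their values were seen. The minimum of 100 reads used for concentration was set after the counts were seen. All 124 symbols matched 1 gene of GENCODE M21, and 39 overlap another counted gene, 20 of them tested. The other marker lists were astrocytes (2137 reads, led by *Slc1a2* at 1817, *Gfap* at 0), oligodendrocyte precursors (982, led by *Pdgfra* at 740) and endothelial cells (42, led by *Flt1* at 26), with 0 genes called by edgeR or DESeq2 with the block. At an unadjusted p under 0.05 edgeR had 0 of each, and DESeq2 had 1 astrocyte, 1 precursor and 0 endothelial genes. Of the haemoglobin genes edgeR called 0, with 4 at an unadjusted p under 0.05, and DESeq2 called 2, *Hba-a1* and *Hba-a2*, which have identical counts. The results of some genes of these lists are not reported here.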

Additional observations from a re-analysis of the deposited data

Results flagged for a closer look

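A library far from the other 4 of its type was looked for in 68 sets of 5 libraries, on log2(TMM CPM + 1) for named members, by the gap to the nearest library over the range, with Dixon's critical value of 0.71. It was passed in 14 sets. The rate of about 1 in 20 by chance holds for normally distributed values in sets not chosen by their level. Some members were named for a high mean, which 1 high library can give, so the count cannot be weighed against that rate. Some of the 14 sets, given below, have a ratio of 1 by construction because a single library had reads. No share over all tested genes is given beside this count, and nothing particular to the members is read from it. The share of gene reads on the members was set apart in *Fezf2+ve* library 4 (0.800).

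A high *Fezf2+ve* library stood apart for *Syncrip* (0.906, animal 4), *Hnrnpd* (0.840, animal 5) and *Rbfox1* (0.815, animal 3), and *Qk* was low in animal 4 (0.763). A high *Fezf2−ve* library stood apart for *Pcbp2* (0.813, animal 5), *Rbfox1* (0.751, animal 3), *Celf1* (0.769, animal 5) and *Elavl4* (0.760, animal 2).

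In 5 sets a single library had reads and the other 4 had 0, which gives a ratio of 1: *Hnrnph1* (1 read), *Rbm7* (1 read) and *Elavl1* (4 reads) in *Fezf2+ve*, and *Hnrnph2* (1 read) and *Ptbp3* (1 read) in *Fezf2−ve* libraries. The source of these high libraries was not tested.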

How the results depend on the processing

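With the animal as a block, 0 genes and 0 members were called, also with library size only, DESeq2's size factors, no filter, an adjusted p of at most 0.05, the legacy quasi-likelihood method, and without each animal in turn (0 for both counts in each). Without the block, 279 genes and 5 members were called, and with the legacy method and no block 638 genes and 6 members (*Hnrnpd*, *Hnrnph2*, *Hnrnpu*, *Hnrnpul1*, *Rbm25* and *Syncrip*). Without the block and without 1 library at a time, a setting chosen after seeing the data as the legacy ones were, 0 to 15 genes and 0 members were called. DESeq2 with the block called 98 genes and 0 members, where genes without an adjusted p counted as not called. The filter of at least 50 CPM in at least 5 libraries, which tested 601 genes and 10 members, called 19 and 0.

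The median log2 fold change of the members was −0.75 under that filter, which keeps 10 members, and −0.48 to −0.0695 without each animal in turn, where animal 5 gave −0.48. With all libraries, the other settings gave −0.22 to −0.08. Without the block and without 1 library at a time it was −0.35 to 0.08, the latter without *Fezf2−ve* library 1. The share of gene reads was higher on the *Fezf2+ve* side of 0 of 5 animals without *Syncrip*, and in 0 to 1 of 4 without each animal in turn. Without each animal in turn its mean was 1.16 to 3.27% in *Fezf2+ve* and 1.83 to 2.62% in *Fezf2−ve* libraries, without *Syncrip* 0.935 and 2.23%, and over members that overlap no other counted gene 2.41 and 1.55%. Of 316 fold changes of 32 named members over the settings other than the unblocked ones without 1 library and the legacy ones, 300 kept the sign of the blocked model, and 22 members kept it in every one of these that tested them. In the unblocked model without *Fezf2+ve* library 4, *Syncrip* turned to −0.11. The cause of these changes was not tested. With 35 members at 3 reads or fewer over all libraries, differences in these were not detectable at this depth.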
